A study of Mus musculus with 5 samples.

Results

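The genes described here encode the nuclear subunits of the mitochondrial respiratory chain and of the ATP synthase, with levels from RNA-seq of hippocampal tissue taken from mice aged 3 months. Members were taken by symbol, as genes whose names start with Nduf followed by a, b, c, s or v, with Uqcr, with Cox4 to Cox8 or with Atp5, together with *Sdha* to *Sdhd* and *Cyc1*, and pseudogene names were left out. The rule found 93 of the 23361 genes listed, and 92 of them reached the mean of 1 FPKM needed for testing. FPKM count sequenced fragments, divided by transcript length and scaled to the size of the library. The remaining gene, *Cox8c*, was listed at 0 in all 5 libraries. Of the 93 genes, 36 encode complex I subunits (7 core and 29 accessory), 7 complex I assembly factors that the name pattern also takes in, 4 complex II subunits, 9 complex III subunits, 11 ubiquitous complex IV subunits, 8 complex IV isoforms or paralogues with restricted expression and 15 ATP synthase subunits. The other 3, *Atp5s*, *Atp5sl* and *Cox7a2l*, share the name pattern but encode proteins that are not structural subunits.

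The control group consisted of 2 libraries from *Hdac1* f/f mice, which carry the floxed allele without Cre. The *Hdac1* cKO group consisted of 3 libraries from *Hdac1* f/f mice that also carry Nestin-Cre, a transgene active in neural progenitors. Deletion therefore reaches neurons and astrocytes, whereas microglia keep the gene, and both groups share the floxed allele. The comparison asks which transcripts differ in the hippocampus when HDAC1, a class I histone deacetylase, is missing from these cells.

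Complexes I and II pass electrons from NADH and succinate to ubiquinone, complex III hands them to cytochrome c, and complex IV passes them to oxygen. Complexes I, III and IV pump protons across the inner mitochondrial membrane, and the ATP synthase lets them flow back to make ATP. Most subunits are encoded in the nucleus and imported, a few are encoded in mitochondrial DNA, and synaptic transmission makes neurons depend heavily on this pathway.

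*Hdac1* itself stood at 8.95 and 13.1 FPKM in control and 1.95, 3.12 and 3.37 FPKM in cKO, a log2 fold change of -1.66 ± 0.21 (SE) with a limma adjusted p of 0.219. The groups did not overlap. The files hold no read totals. The paper states a mean read yield per sample for its RNA-seq, which is higher than the estimate used here and was not matched to it. The depth estimated from steps in low FPKM values was 5040000 to 6690000 fragments per library, so counting error is small for abundant members and large for those near 1 FPKM. The same steps placed the libraries into 2 sets, control 1 with cKO 1 and control 2 with cKO 2 and cKO 3. Pairs within a set shared 24.6% to 28.4% of their low-level ratios in the fullest window, against 3.71% to 4.64% across sets. Differences within each set are therefore given beside the pooled ones for most of the genes named. With the library set as a block, *Hdac1* had a log2 fold change of -1.74 and a limma adjusted p of 0.00389. Of 15 neuron markers, 14 were lower in cKO (median log2 fold change -0.11), where 53.7% of all tested genes were above 0. Their summed levels were 3323 and 3693 FPKM in controls and 3172 to 3568 FPKM in cKO. Every cKO library lay below both controls in 3 of them (against 9.41% of all tested genes) and above both in 1 (against 11.0%). On a common total the counts were 4 (against 15.3%) and 0 (against 4.53%). The 15 astrocyte markers had a median of 0.0084, but in 7 of them (46.7%, against 11.0% of all tested genes) every cKO library lay above both controls. After each library was scaled to a common total this held for 3 of them (4.53% of all genes) and the reverse for 1. Their summed levels were 5739 and 5633 FPKM in controls and 5877, 5896 and 6025 FPKM in cKO, and as shares of each library's total, which overlapped, 0.985% and 0.996% against 0.923%, 1.01% and 1.03%. One of them, *Aqp4*, the water channel of astrocyte endfeet, had a log2 fold change of 0.78 ± 0.093, with a limma adjusted p of 0.175, and of 0.0187 with the library set as a block. The 10 oligodendrocyte markers had a median of 0.11 and the 10 microglia markers one of -0.014, with 8 and 5 above 0. All of these markers were detected, whereas choroid plexus markers, from a neighbouring tissue, summed to 166 and 6.24 FPKM in controls and to 75.1, 603.5 and 25.0 FPKM in cKO. The part of these markers in the results below was not tested, and in bulk tissue fewer cells of a type and less RNA per cell cannot be told apart.

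Respiratory chain transcripts were among the most abundant of the hippocampus. The 93 genes together held 4.89% and 4.73% of the summed FPKM of the 2 controls and 4.82%, 5.23% and 4.96% of that of the 3 cKO libraries. Their median mean level was 198 FPKM, against 10.9 FPKM over all tested genes. Complex IV transcripts stood highest per unit length, with a median of 786 FPKM over the 11 ubiquitous subunits. *Cox8a*, a small subunit that spans the membrane, led all members at 1774 FPKM, and *Cox4i1*, a regulatory subunit, followed at 1555 FPKM. The ATP synthase subunits had a median of 446 FPKM, led by *Atp5k*, the e subunit of the membrane sector, at 1357 FPKM. Complex I and complex III had medians of 190 and 187 FPKM, and complex II, the only complex that is also an enzyme of the tricarboxylic acid cycle, had the lowest median at 122 FPKM.

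Levels within a complex spread widely although the proteins assemble in fixed numbers. Complex I ranged from 22.5 FPKM for *Ndufa11* to 621 FPKM for *Ndufb9*, both accessory subunits, and its 7 core subunits lay between 72.3 and 159 FPKM. Complex II was the tightest, with its 4 genes between 104 and 131 FPKM. Assembly factors of complex I, which build the enzyme but are not part of it, were far lower, from 10.7 to 38.1 FPKM. FPKM of transcripts shorter than the sequenced fragments depend on how their effective length is estimated, so the order of the shortest genes is less certain than that of the long ones.

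**Figure D1:**
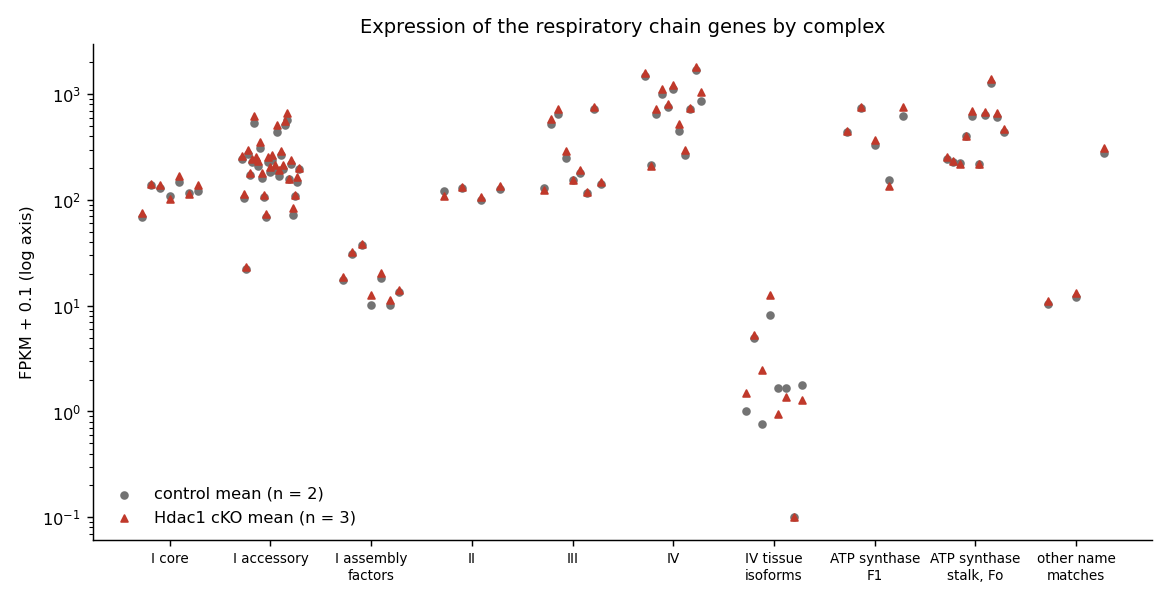
Mean FPKM plus 0.1 (log axis) of each of the 93 genes, grouped by complex, with grey circles for the mean of the 2 controls and red triangles for the mean of the 3 Hdac1 cKO libraries. Group means of the ubiquitous complex IV subunits reach 1828 FPKM, those of the complex II subunits sit between 99.7 and 134 FPKM, and those of the restricted complex IV isoforms lie at 12.5 FPKM or lower.

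No respiratory chain gene passed an adjusted p of 0.05 between *Hdac1* cKO and control (limma, Benjamini-Hochberg over 12740 genes, lowest adjusted p 0.955), where 0.00785% of all tested genes did. At an unadjusted p under 0.05, 2 of the 92 tested members were higher and none was lower, against 4.36% of all genes called in either direction. The 2 genes were *Atp5e* and *Cox6b2*, and only *Cox6b2* also passed a fold change of 1.5, which 0.659% of all genes did. *Cox6b2* averaged under 1 FPKM in control and reached the filter for testing only through cKO. Most members nevertheless lay slightly above 0. In 79 of 92 the log2 fold change was positive (85.9%, against 53.7% of all tested genes), with a median of 0.11, against 0.015 for all tested genes. Other genes of at least 50 FPKM were above 0 in 78.8% for coding sequences up to 300 nt and in 77.1% from 300 to 600 nt.

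All 3 cKO libraries exceeded both controls in 28 of the 92 members (30.4%), whereas 11.0% of all tested genes had groups that did not overlap in this direction. Most members have short coding sequences, and among other genes the share was 21.8% up to 300 nt and 16.8% from 300 to 600 nt. The opposite arrangement was found for 1 member, *Sdha*, against 9.41% of all tested genes. The difference was positive in both library sets for 64 members (69.6%) and negative in both for 6, where all tested genes gave 30.9% and 29.1%. With the library set as a block in the limma fit, 18 members were higher at an unadjusted p under 0.05 and none was lower, against 5.32% and 4.02% of all tested genes, and the lowest adjusted p among the members was 0.427.

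**Figure D2:**
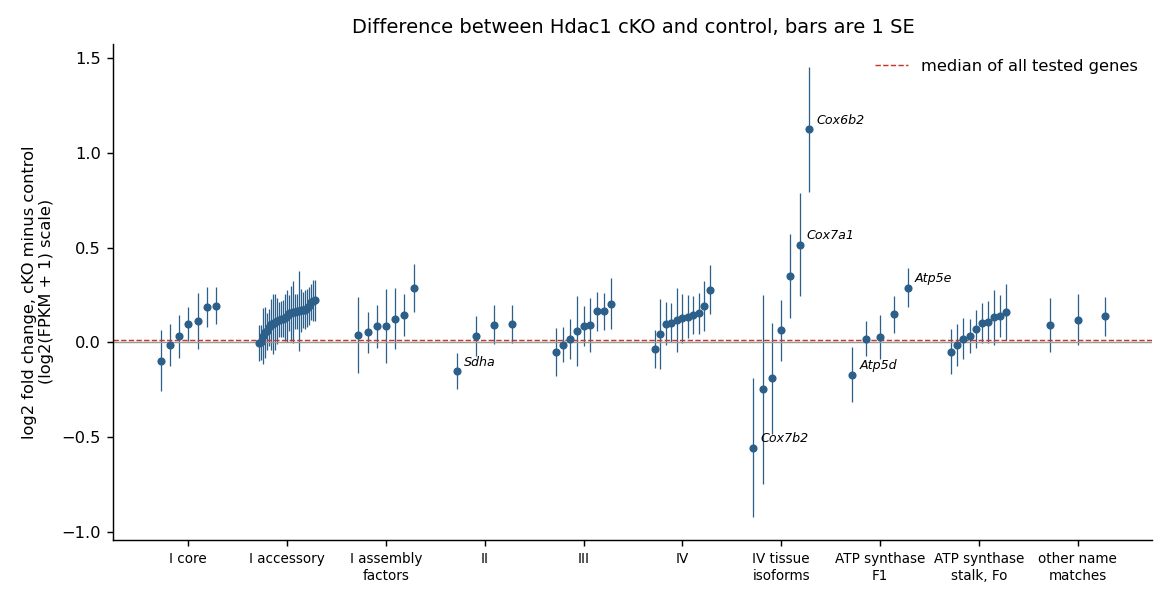
Log2 fold change of each of the 92 tested genes (Hdac1 cKO minus control, log2(FPKM + 1) scale) by complex, with bars of 1 SE from limma. Points of complexes I and IV mostly lie above the dashed line, which marks the median of all tested genes at 0.015, and the restricted complex IV isoforms have the widest bars.

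These counts depended on how the libraries were scaled. FPKM summed to 582920 and 565363 in the controls and to 636705, 586283 and 582333 in the cKO libraries. After each library was rescaled to a common total, 64 of 92 members were above 0 (against 37.7% of all genes), with a median of 0.044 where all genes had -0.047. Groups that did not overlap were then found for 8 members higher in cKO (4.53% of all genes) and 2 lower (15.3% of all genes). Among the genes described below, *Ndufb9*, *Ndufs8*, *Cox6b2* and *Atp5e* were among these 8, *Ndufa3* and *Ndufv2* were not, and the 2 lower ones were *Sdha* and *Cox5a*. The difference was then positive in both library sets for 30 members (32.6%, against 14% of all tested genes) and negative in both for 21 (22.8%, against 47.3%). The gap between the members' median and that of all genes was 0.095 as deposited, 0.090 after rescaling and 0.051 after quantile normalization. The same gap was 0.041 without control 2, when 67 of 92 members were above 0 (against 58.6% of all genes), and 0.15 without control 1.

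In 16 of the 36 complex I subunits (44.4%, against 11.0% of all tested genes) every cKO library exceeded both controls. After rescaling to a common total this held for 5 of the 36 (13.9%, against 4.53% of all genes). The 36 subunits had a median log2 fold change of 0.13, and 33 were above 0. The medians were 0.11 and 0.14 within library sets 1 and 2. Accessory subunits, which surround the catalytic core and mostly serve its stability and assembly, had a median of 0.14 over 29 genes. The 7 core subunits, which carry the flavin, the iron-sulphur clusters and the quinone site, had one of 0.097. Whether core and accessory subunits differ was not tested. *Ndufa3*, an accessory subunit, had the largest increase in the complex, with 508.5 and 549 FPKM in controls and 582, 669.5 and 600.1 FPKM in cKO. Its log2 fold change was 0.22 ± 0.11 (limma adjusted p = 0.955), the groups did not overlap, and the difference was 0.19 within set 1 and 0.21 within set 2. *Ndufb9*, the most abundant complex I transcript, stood at 578.5 and 556 FPKM in controls and at 657, 663 and 652 FPKM in cKO. The 3 cKO values were closely grouped and lay above both controls (log2 fold change 0.21 ± 0.095, limma adjusted p = 0.955, 0.18 and 0.24 in the 2 sets).

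Fold changes of the core subunits of complex I ran from -0.097 to 0.19, and whether these subunits differ from each other was not tested. *Ndufs1*, which carries iron-sulphur clusters of the NADH-oxidizing arm, was at 60.5 and 77.6 FPKM in controls and at 64.5, 85.2 and 73.9 FPKM in cKO, with overlapping groups. *Ndufv1*, which holds the flavin and the NADH site, was at 114 and 117 FPKM against 107, 109 and 129 FPKM. For both subunits the log2 fold changes of 0.11 and -0.014 were smaller than their standard errors of 0.15 and 0.11. The set differences were 0.092 and 0.032 for *Ndufs1* and -0.088 and 0.013 for *Ndufv1*. *Ndufs7*, which carries the last iron-sulphur cluster before ubiquinone, had the largest decrease of the complex (-0.097 ± 0.16), with 119.9 and 98.8 FPKM in controls and 125, 86.1 and 97.8 FPKM in cKO. Its difference was 0.057 within set 1 and -0.11 within set 2, so its direction was not shared by the sets. Another pair of core subunits with iron-sulphur clusters, *Ndufs8* and *Ndufv2*, named after their values were seen, had log2 fold changes of 0.19 ± 0.096 and 0.19 ± 0.10 (limma adjusted p = 0.955 for both). *Ndufs8* was at 150.5 and 143 FPKM in controls and at 169, 177 and 158 FPKM in cKO, and *Ndufv2* at 120.1 and 123 FPKM against 133, 153 and 130.3 FPKM. In both genes every cKO library lay above both controls, and the set differences were 0.16 and 0.23 for *Ndufs8* and 0.14 and 0.20 for *Ndufv2*. The 7 assembly factors all had positive fold changes, with a median of 0.085 and a highest value of 0.29. Of them 3 were positive in both sets (42.9%, against 30.9% of all tested genes) and none was negative in both (against 29.1%).

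In complex II the pooled log2 fold change was negative for the flavoprotein subunit and positive for the other 3 genes. Whether these subunits differ from each other was not tested. *Sdha*, which oxidizes succinate, stood at 117 and 127 FPKM in controls and at 108.5, 105 and 116 FPKM in cKO. Every cKO library lay below both controls, with a log2 fold change of -0.15 ± 0.096 (limma adjusted p = 0.955) and differences of -0.11 and -0.20 in the 2 sets. Its gene lies at chr13:74459702-74487728 on the minus strand (mm9). *Sdhb*, the iron-sulphur subunit, was at 123 and 134.5 FPKM against 119, 139.5 and 136 FPKM (0.032 ± 0.11), with no separation of the groups and differences of -0.038 and 0.034 in the 2 sets. The membrane anchors *Sdhc* and *Sdhd* had log2 fold changes of 0.097 ± 0.098 and 0.093 ± 0.10. *Sdhc* was at 105.5 and 93.9 FPKM in controls and at 112, 103 and 105 FPKM in cKO, and *Sdhd* at 130 and 121 FPKM against 143, 137 and 123 FPKM. In both genes the lowest cKO value fell between the controls, and the set differences were 0.080 and 0.15 for *Sdhc* and 0.13 and 0.10 for *Sdhd*. Without control 2 these fold changes were 0.013 and 0.038, and that of *Sdha* was -0.095.

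Complex III had a median log2 fold change of 0.086 over 9 genes, of which 7 were above 0. Its redox subunits were near 0. *Uqcrfs1*, the Rieske iron-sulphur protein, was at 121 and 113 FPKM in controls and at 129.9, 113 and 113 FPKM in cKO (0.018 ± 0.10). *Cyc1*, cytochrome c1, had the largest decrease of the complex at -0.051 ± 0.12, with 138 and 118 FPKM against 138, 109.5 and 125 FPKM. *Uqcrc1*, a core protein that faces the matrix, was at 159.8 and 151 FPKM against 153, 147 and 162.5 FPKM (-0.012 ± 0.094). In all 3 of these genes the groups overlapped. Within sets 1 and 2 the differences were 0.10 and 0.00059 for *Uqcrfs1*, -0.0059 and -0.019 for *Cyc1*, and -0.062 and 0.033 for *Uqcrc1*. *Uqcrb*, a small ubiquinone-binding protein, had the largest increase at 0.20 ± 0.14, but its cKO value of 253 FPKM in cKO 1 lay between the controls at 239 and 258 FPKM, and 3 near-identical copies of its coding sequence in the genome can share its reads. Its difference was 0.081 within set 1 and 0.24 within set 2, and without cKO 2 the fold change was 0.082. *Uqcrh*, the hinge protein that docks cytochrome c1, was the most abundant at 747 FPKM, with 630 and 811 FPKM in controls and 682, 843 and 771 FPKM in cKO, again overlapping (0.093 ± 0.14, with 0.11 and -0.0095 in the 2 sets).

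The 11 ubiquitous complex IV subunits had a median log2 fold change of 0.13. Of them 10 were positive in both library sets (against 30.9% of all tested genes), but 4 on a common total (against 14%). As deposited, every cKO library exceeded both controls in 4 of the 11 (36.4%, against 11.0%), and none was separated in the lower direction. On a common total none was separated in the higher direction (against 4.53% of all genes) and 1, *Cox5a*, in the lower (against 15.3%). *Ndufa4*, first assigned to complex I and now known as a complex IV subunit, had the largest increase. It stood at 789 and 938.5 FPKM in controls and at 935, 1143 and 1065 FPKM in cKO, with cKO 1 just below control 2. The log2 fold change was 0.28 ± 0.13 (limma adjusted p = 0.955), with 0.24 within set 1 and 0.23 within set 2. With the set as a block it was among the 18 members under an unadjusted p of 0.05, with an adjusted p of 0.467. *Cox4i1* was at 1585 and 1401 FPKM in controls and at 1675, 1593 and 1522 FPKM in cKO (0.099 ± 0.12). *Cox8a* was at 1959 and 1430 FPKM against 2095, 1737 and 1652 FPKM (0.12 ± 0.17). For both, set 1 ran higher than the second in either genotype, so the groups overlapped although each set alone gave a positive difference as deposited, of 0.080 and 0.15 for *Cox4i1* and of 0.097 and 0.24 for *Cox8a*. After rescaling to a common total, cKO 1 lay below control 1 in both genes, so the set 1 difference was not positive there. *Cox5a* was the exception in the complex, with 222 and 206 FPKM in controls and 221, 214 and 192 FPKM in cKO (-0.036 ± 0.10, with -0.0036 and -0.026 in the 2 sets).

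Of the 7 expressed complex IV isoforms and paralogues with restricted expression, *Cox7a1* and *Cox6a2* reached means of 10.7 and 5.09 FPKM, and the other 5 averaged under 2 FPKM. *Cox6b2*, the testis form of a subunit on the outer face of the complex, was at 1.32 and 0 FPKM in controls and at 2.20, 1.85 and 3.02 FPKM in cKO. Its mean was 0.659 FPKM in control and 2.36 FPKM in cKO, so it reached the filter of 1 FPKM only through cKO. The groups did not overlap, and the log2 fold change of 1.13 ± 0.33 was the largest of all members (limma adjusted p = 0.955, 0.47 within set 1 and 1.76 within set 2). The size was set by the control at 0, since it was 0.52 without control 2 and 2.68 with a pseudocount of 0.1 in place of 1. These levels correspond to an estimated 4.9 and 0 fragments for control and 8.1, 5.1 and 10 for cKO, and the mean was 0.213% of that of the ubiquitous *Cox6b1*. *Cox6b1* itself was at 757 and 747 FPKM in controls and at 783, 863.5 and 779 FPKM in cKO. It was chosen as the counterpart after its values were seen. The *Cox6b2* gene lies at chr7:4703396-4704696 on the minus strand (mm9) and shares no exonic sequence with another annotated gene.

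The heart and skeletal muscle forms *Cox6a2*, *Cox7a1* and *Cox8b*, the lung form *Cox4i2*, the testis form *Cox7b2* and the hypoxia-induced paralogue *Ndufa4l2* showed no shared direction. *Cox7a1* was at 6.79 and 9.45 FPKM in controls and at 9.44, 9.57 and 18.4 FPKM in cKO, so its log2 fold change of 0.51 ± 0.27 (limma adjusted p = 0.955) rested on cKO 3 and was 0.22 without it. It was 0.42 within set 1 and 0.46 within set 2. *Cox6a2* was at 5.0 and 4.79 FPKM against 5.34, 6.17 and 4.15 FPKM (0.064 ± 0.16, with 0.078 and 0.070 in the 2 sets), with groups that overlapped. *Cox4i2* was at 0.56 and 1.24 FPKM against 1.69, 0.959 and 1.57 FPKM, again overlapping, with 0.79 within set 1 and 0.0011 within set 2. It averaged 0.900 FPKM in control and 1.405 FPKM in cKO, so it reached the filter only through cKO. *Cox7b2* averaged 1.58 FPKM in control and 0.846 FPKM in cKO, so it reached the filter only through control. It had the largest decrease of any member at -0.56 ± 0.37, with 2.07 and 1.10 FPKM in controls and 1.38, 0 and 1.16 FPKM in cKO. Its size was set by cKO 2, since it was -0.16 without that library and -1.50 with a pseudocount of 0.1, and the set differences were -0.36 and -0.52. *Cox8b* was at 2.43 and 0.685 FPKM against 2.41, 0 and 1.44 FPKM, and *Ndufa4l2* at 2.65 and 0.701 FPKM against 1.10, 1.36 and 1.11 FPKM. The differences in sets 1 and 2 were -0.010 and -0.11 for *Cox8b* and -0.80 and 0.39 for *Ndufa4l2*. In these last 3 genes control 1 was the highest library and the groups overlapped. The 6 expressed isoforms with a ubiquitous counterpart reached 0.0774% to 2.18% of its level. Of 11 genes that mark muscle and testis themselves, 1 reached 1 FPKM, and their summed level was 4.77 to 6.53 FPKM in every library.

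The ATP synthase had a median log2 fold change of 0.069 over 15 genes, and 12 of them were above 0. The 5 subunits of its catalytic F1 head had fold changes from -0.17 to 0.29, with 4 above 0. *Atp5e*, the epsilon subunit of the central stalk, was at 626 and 611 FPKM in controls and at 775, 792.5 and 703 FPKM in cKO. All cKO libraries lay above both controls. The log2 fold change was 0.29 ± 0.10 (limma adjusted p = 0.955), with 0.31 within set 1 and 0.29 within set 2, and the adjusted p was 0.436 with the set as a block. Its gene lies at chr2:174286573-174289606 on the minus strand (mm9) and encodes the shortest protein of the F1 head, with a coding sequence of 159 nt. *Atp5d*, the delta subunit next to it in the stalk, had the largest decrease of the complex at -0.17 ± 0.15. It was at 171 and 135 FPKM in controls and at 155, 118 and 133 FPKM in cKO, and the difference was -0.13 and -0.10 in the 2 sets. The groups overlapped because control 2 lay below cKO 1, and the fold change was -0.00074 without control 1 and -0.34 without control 2. Exons of *Atp5d* overlap those of *Dos* on the other strand by 68 nt, and whether counting used the strand was not given in the sources used here.

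The subunits that bind nucleotides in the F1 head showed no difference beyond their error. *Atp5a1*, the alpha subunit, was at 450.4 and 436 FPKM in controls and at 444, 446 and 456 FPKM in cKO (0.018 ± 0.092). *Atp5b*, the catalytic beta subunit, was at 701 and 777 FPKM against 685, 785 and 795 FPKM (0.028 ± 0.11). *Atp5k*, in the membrane sector, was at 1441 and 1132 FPKM against 1506, 1452 and 1252 FPKM (0.13 ± 0.14). In each of these 3 genes the groups overlapped. The differences within sets 1 and 2 were -0.021 and 0.050 for *Atp5a1*, -0.035 and 0.023 for *Atp5b* and 0.063 and 0.25 for *Atp5k*. The 10 genes of the peripheral stalk and the membrane sector had a median of 0.086, ranging from -0.049 to 0.16.

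The summed level of the 75 structural subunits was 28060 and 26300 FPKM in controls and 30150, 30180 and 28390 FPKM in cKO, so every cKO library lay above both controls, cKO 3 only narrowly. As a share of each library's total the values were 4.81% and 4.65% against 4.74%, 5.15% and 4.88%, and the groups overlapped. Taken per library as the median over a complex, the 3 cKO libraries lay above both controls for complexes I, II and III and overlapped them for complex IV and the ATP synthase. For complex I the values relative to the control mean were 0.014 and -0.014 in controls and 0.16, 0.14 and 0.11 in cKO. For the ATP synthase they were 0.069 and -0.069 against 0.12, 0.089 and 0.019. On a common total the 3 cKO libraries lay above both controls for complex I alone, at 0.0087, 0.11 and 0.088 against -0.0084 and 0.0084, so cKO 1 exceeded control 2 only narrowly, and for the other 4 complexes the groups overlapped. As deposited, the medians of all tested genes were -0.026 and 0.026 in controls and -0.016, 0.031 and 0.029 in cKO.

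**Figure D3:**
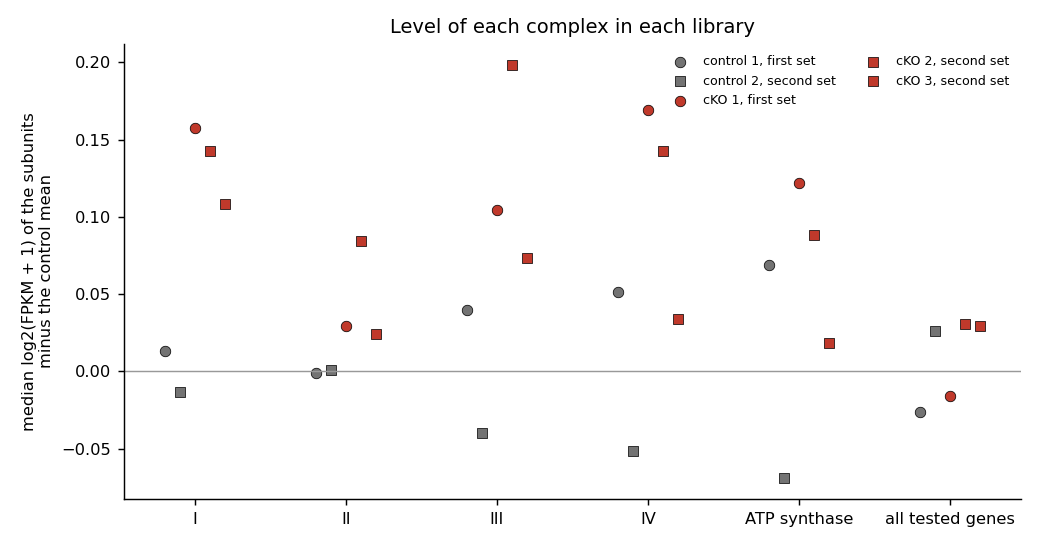
Median over the subunits of each complex of log2(FPKM + 1) minus the mean of the 2 controls, 1 point per library, grey for control and red for Hdac1 cKO, circles for library set 1 and squares for set 2. Complex I cKO libraries lie at 0.11 to 0.16 above the control mean, whereas cKO 3 lies between the controls for complex IV and the ATP synthase.

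Fold changes were lower in the longest coding sequences, both among the members and among other genes. Most respiratory chain subunits are small proteins, and 65 of the 92 tested members have a longest annotated coding sequence of 600 nt or less. Among the members the median log2 fold change was 0.12 up to 300 nt (23 genes), 0.14 from 300 to 600 nt (42 genes), 0.097 from 600 to 1200 nt (17 genes) and 0.023 above 1200 nt (10 genes). Among all other tested genes the medians of the same classes were 0.088, 0.059, 0.023 and -0.0023, and in those of at least 50 FPKM they were 0.10, 0.086, 0.050 and 0.0017. In the latter 78.8%, 77.1%, 67.6% and 51.2% were above 0, against 82.6%, 90.5%, 88.2% and 70% of the members. As deposited, every cKO library exceeded both controls in 7, 16, 5 and 0 members of these classes. Among all other tested genes this held for 21.8%, 16.8%, 12.8% and 8.43%. The correlation of log2 coding length with log2 fold change was -0.18 (Pearson; Spearman -0.27) across the 92 members and -0.11 (Spearman -0.13) across 11667 other genes, which share the 5 libraries and are not independent. Length, level and group membership go together here, and their separate parts were not tested. The length classes were chosen after the values were seen.

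**Figure D4:**
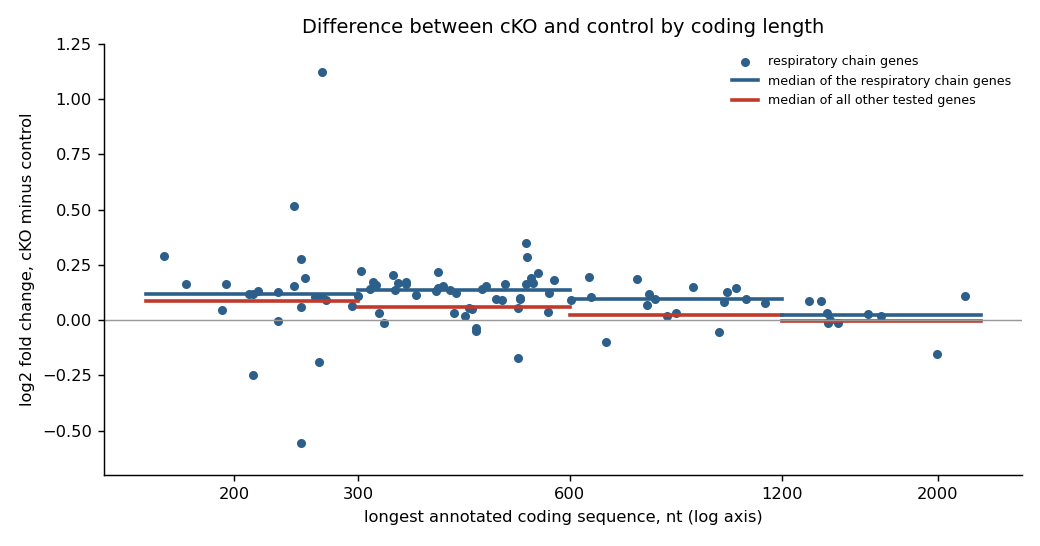
Log2 fold change (Hdac1 cKO minus control) against the longest annotated coding sequence in nt (log axis) for the 92 tested genes, with horizontal lines at the median of these genes (blue) and of all other tested genes (red) in 4 length classes. The blue line goes from 0.12 to 0.14 and then falls to 0.097 and 0.023, and the red falls from 0.088 to -0.0023.

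Other gene lists of the mitochondrion and of translation were described in the same fit. The 88 cytosolic ribosomal protein genes, short and abundant like the subunits, had a median of 0.13, with 78 of 85 tested genes above 0, 4 higher and 2 lower at an unadjusted p under 0.05, which 4.36% of all tested genes passed. In 39 of them (45.9%, against 11.0% of all tested genes) every cKO library exceeded both controls, and in 7 of the 85 after rescaling to a common total (8.24%, against 4.53%). On that scale 3 of the 85 were separated in the other direction, against 15.3% of all genes. With the library set as a block 23 were higher and 2 lower at an unadjusted p under 0.05, as were 5.32% and 4.02% of all tested genes. The 76 mitochondrial ribosomal protein genes had a median of 0.078, with 56 above 0, 3 higher and 1 lower, and 17 of them (22.4%, against 11.0%) had every cKO library above both controls. On a common total 7 of the 76 (9.21%, against 4.53%) were separated in this direction and 5 in the other, against 15.3%. The 26 assembly factors outside the name rule had a median of 0.068 and 16 above 0. The 16 genes of the tricarboxylic acid cycle had a median of 0.035 and 9 above 0, and 17 other proteins tied to the chain, such as cytochrome c and the adenine nucleotide and phosphate carriers, had a median of -0.0091 and 7 above 0. No gene of these last 3 lists passed an unadjusted p of 0.05. Of 15 regulators of mitochondrial biogenesis, 6 were above 0 (median -0.031) and 1 was higher at an unadjusted p under 0.05. This was *Tfb1m*, which methylates mitochondrial ribosomal RNA, at 0.38 (limma adjusted p = 0.955), named after its values were seen. *Ppargc1a*, the coactivator that drives mitochondrial biogenesis, was at 6.33 and 6.69 FPKM in controls and at 6.24, 6.76 and 6.14 FPKM in cKO (-0.026 ± 0.12).

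Nuclear respiratory genes are known targets of NRF1, which binds a palindromic GC-rich element, of the ETS factor GABP, and of SP1. Promoter sequence from RefSeq (GRCm38.p6) was matched for 76 of the 93 members by symbol and searched on both strands in the 250 bases before the start. The NRF1 element GCGCATGCGC was found in 5 members (6.58%, against 0.877% of 27025 genes with such a window). Exact letters alone were counted, so members with a stretch that differs by a single letter, such as *Ndufa8* and *Sdha*, were taken as without it. The ETS letters CCGGAAG were found in 13 (17.1%, against 7.83%) and the SP1 letters GGGCGG in 30 (39.5%, against 35.4%). The 5 stretches with the NRF1 element are shown because they are the clearest sequence feature that members of different complexes share, with the searched motifs in capitals and 20 bases on each side of the element.
Atp5g2: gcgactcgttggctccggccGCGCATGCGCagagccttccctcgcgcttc
Atp5k: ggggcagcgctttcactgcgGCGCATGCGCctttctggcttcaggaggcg
Cox6a1: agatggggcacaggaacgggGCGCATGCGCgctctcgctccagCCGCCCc
Ndufa11: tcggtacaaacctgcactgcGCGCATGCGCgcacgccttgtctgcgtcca
Ndufaf4: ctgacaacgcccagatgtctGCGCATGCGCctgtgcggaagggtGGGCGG

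In GRCm38.p6 these lie at chr15:102671060-102671109 (minus strand), chr5:108434420-108434469 (minus), chr5:115349091-115349140 (minus), chr17:56717682-56717731 (plus) and chr4:24897950-24897999 (plus). *Atp5g2* encodes the c subunit of the ATP synthase ring, *Cox6a1* a small complex IV subunit, and *Ndufaf4* a complex I assembly factor. Their log2 fold changes were -0.049 for *Atp5g2*, 0.13 for *Atp5k*, 0.14 for *Cox6a1*, 0.057 for *Ndufa11* and 0.29 for *Ndufaf4*, so carriers of the element ranged from among the lowest to among the highest members. The median was 0.13 over the 5 carriers and 0.12 over the 71 matched members without it. With the ETS letters it was 0.13 (12 of 13 above 0) and without them 0.12, and with the SP1 letters 0.11 (27 of 30 above 0) and without them 0.12.

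The 110 bases before the start are shown for *Atp5e*, the structural subunit with the lowest p, and for the pair *Cox6b1* and *Cox6b2*, of which the restricted form had the largest fold change of any member. Capitals mark the ETS letters (CTTCCGG on the opposite strand) and the SP1 letters.
Atp5e: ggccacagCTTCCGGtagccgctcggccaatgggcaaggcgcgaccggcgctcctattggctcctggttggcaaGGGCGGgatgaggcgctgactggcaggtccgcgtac
Cox6b1: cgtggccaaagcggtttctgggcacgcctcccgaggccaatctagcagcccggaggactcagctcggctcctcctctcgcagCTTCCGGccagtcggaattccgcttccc
Cox6b2: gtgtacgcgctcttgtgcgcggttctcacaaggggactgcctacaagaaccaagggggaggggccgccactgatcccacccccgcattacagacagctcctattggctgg

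These windows lie at chr2:174464102-174464211, chr7:30626115-30626224 and chr7:4753095-4753204, all on the minus strand of GRCm38.p6. The ubiquitous *Cox6b1* carries the ETS letters close to its start, and the restricted *Cox6b2* carries none of the searched letters in these 110 bases, although SP1 letters lie further upstream in its window of 250 bases and it is one of the 30 carriers counted above. A match is a description of the letters and does not show binding.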

How the data were processed

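RNA-seq libraries from hippocampus (2 control, 3 Hdac1 cKO) were grouped by title and genotype. Per the labels, FPKM were made by the authors from total RNA with TopHat and Cufflinks 2.0.0 on mm9. Reads from near-identical copies can be split by this counting, and 21 members have such a copy (95% identity over 80% of the coding sequence, BLAST 2.17.0). The study gives its group sizes in mice, so each library was taken as 1 animal. FPKM are not counts, so limma 3.58.1 (R 4.3.3, lmFit and eBayes with a trend, two-sided) was run on log2(FPKM + 1) over the 12740 genes that averaged 1 FPKM or more, with genotype as the only term, and was tested on simulated data. Fold changes on this scale understate those of low genes. Named genes were fixed by rule, namely a set of catalytic or well-known subunits, all restricted isoforms, the largest increase, largest decrease and highest level per complex, and members under an unadjusted p of 0.05, with Hdac1 as the check of the deletion. A result that this rule names is not reported here. Members, lists and library sets were chosen with earlier results of these data known. Gene positions are from GENCODE vM1 (mm9 assembly), in which all 93 members matched (3 by an older symbol), and 19 overlap an exon of a neighbour. Other pseudocounts, filters, scalings, blocks and left-out libraries were tried as alternatives. A protein table was not used here.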

Additional observations from a re-analysis of the deposited data

How the results depend on the processing

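No member passed an adjusted p of 0.05 (limma) under any of the 14 alternatives with a fit of their own, and of 428 values of named genes under them 385 kept their direction and their side of this threshold, 41 turned and 2, both for Hdac1, passed it (-1.74 with the library set as a block and -1.77 with the replicate number). The differences are small, there are 2 controls, and the depth was estimated from low values. The smallest difference that this design can show was not tested, and genes near 1 FPKM rest on few fragments. The cause of each change below was not tested. Members under an unadjusted p of 0.05 were 2, and were 1 with a minimum mean of 5 FPKM, which removed Cox6b2, 1 after rescaling to a common total, 18 with the set block (9.34% of all genes) and 27 with the replicate block (11.2%), against 4.36% of all genes as reported. With leave-one-out they were 1 to 5, the highest without cKO 1 (7.61% of all genes) and the lowest without control 1 or cKO 2 (3.30% and 3.05%), and 4 without control 2 (5.38%). Members that also passed a fold change of 1.5 were 1, and were 0 with the minimum of 5 FPKM, 2 with the replicate block and 1 to 2 with leave-one-out.

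The replicate numbers in the titles are shared by only 2 pairs, whose deviations correlated at 0.402 and 0.269, and each pair also falls within a library set. Nothing in the labels ties a number to a shared animal, litter or day, and 2 pairs are too few to decide from the correlation, so the numbers were not taken as a pairing. The replicate block rests on these 2 pairs, called 1430 of all genes at an unadjusted p under 0.05 where 555 were called without it, and gave a lowest adjusted p of 0.292 among members, a complex II median of 0.057 and log2 fold changes of 0.024 for Cox5a and -0.010 for Atp5b. The set block gave a complex II median of 0.058 and a log2 fold change of -0.0017 for Atp5b.

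Scaling lowered the medians. Quantile normalization gave 0.057 for all members, 0.087 for complex I, 0.020 for complex II, 0.0097 for complex III, 0.026 for complex IV and 0.0022 for the ATP synthase. It turned Sdhb (-0.0041), Uqcrfs1 (-0.026), Cox4i1 (-0.055), Atp5a1 (-0.047), Atp5b (-0.10), Uqcrh (-0.024) and Cox8a (-0.025). A common total gave 0.044 for all members, 0.061 for complex I, -0.0036 for complex II, 0.020 for complex III, 0.059 for complex IV and 0.0028 for the ATP synthase, and turned Sdhb (-0.034), Uqcrfs1 (-0.048), Atp5a1 (-0.048) and Atp5b (-0.038). Median-ratio size factors gave 0.047 for complex II. Members without a near-identical copy gave 0.060 for complex III and 0.024 for the ATP synthase, and members with a transcript of at least 1000 nt gave 0.097 for complex I, 0.018 for complex III and 0.034 for the ATP synthase.

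With leave-one-out the median ran from 0.025 (without control 2) to 0.057 for complex II, from 0.051 (without cKO 2) to 0.13 (without cKO 1) for complex III, from 0.066 (without control 2; 0.071 without cKO 1) to 0.18 (without control 1) for complex IV and from 0.022 (without control 2) to 0.13 (without control 1) for the ATP synthase. Over all members it ran from 0.084 to 0.14. Single genes that turned ran from -0.066 to 0.29 for Ndufs1, -0.099 to 0.033 for Ndufv1, -0.24 to 0.041 for Ndufs7, -0.034 to 0.10 for Sdhb, -0.050 to 0.068 for Uqcrfs1, -0.051 to 0.028 for Uqcrc1, -0.16 to 0.059 for Cyc1, -0.090 to 0.28 for Uqcrh, -0.087 to 0.024 for Cox5a, -0.11 to 0.35 for Cox8a, -0.0053 to 0.042 for Atp5a1, -0.046 to 0.10 for Atp5b, -0.043 to 0.31 for Atp5k, -0.045 to 0.19 for Cox6a2, -0.76 to 0.27 for Cox8b and -0.74 to 0.36 for Ndufa4l2. Without turning, Cox4i1 ran from 0.0094 (without control 2) to 0.19, Cox4i2 from 0.089 (without control 1) to 0.61, Ndufa4 from 0.15 (without control 1) to 0.40 and Cox7b2 from -0.83 (without control 2) to -0.16 (without cKO 2).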
